A study of Mus musculus with 8 samples.

Results

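Transcripts of 10 genes that encode transcription factors of hair follicle stem cells were followed in mouse follicle cells after skin injury, with and without regulatory T cells (Treg cells). The genes are Sox9, Lhx2, Nfatc1, Foxc1, Tbx1, Tcf7l1, Tcf7l2, Nfib, Nfix and Barx2. They were chosen by name and found by Ensembl identifier among the 46078 genes listed in the deposited count table, and all 10 of the 10 passed the filter on low counts that 16495 genes passed. The cells carried the label of Lgr5 tracing and came from the strain given as Lg5-egfp-ires-creert2/R26-tdTomato, in which an inducible Cre recombinase is made from the Lgr5 locus and switches on a tdTomato reporter for good, so that traced cells include progeny that no longer make Lgr5. All 8 libraries were from injured skin and from this strain. They comprised Treg-depleted cells (n = 4) and Treg-sufficient cells (n = 4), with 2 libraries of each condition in experiment 2 and 2 in experiment 1. In each condition, experiment 1 gave replicates 1 and 2 and experiment 2 gave replicates 3 and 4. The ages of the mice, the means of Treg depletion, the kind of injury and its timing, and what set the experiments apart are not stated in the labels. Whether each replicate is a separate animal is not said, so p-values measure only the spread between these samples, which may be technical.

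Follicle stem cells rest in the bulge, the lower permanent part of the follicle, and are called into growth at the start of each hair cycle or to repair a wound. Sox9 and Lhx2 give these cells their identity, Nfatc1, Foxc1 and Tbx1 set how readily they divide and how well they renew themselves, and Tcf7l1 and Tcf7l2 read Wnt signals, repressing Wnt target genes until β-catenin joins them on DNA. Nfib and Nfix keep the chromatin of stem cell genes open, and Barx2 is a homeobox factor of the follicle epithelium. After wounding, follicle stem cells can leave the niche and take on epidermal features, a passage in which stem cell and epidermal transcription factors are found in the same cells.

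The libraries held 22330729 to 29975347 counts over genes. The labelled cell type was checked against markers fixed as lists. Lgr5 stood at 308 to 518 CPM, the read count scaled to library size, and 6 follicle stem cell and basal keratinocyte markers summed to 14160 to 29650 CPM, against 29.2 to 118 CPM for 8 fibroblast markers, 1.75 to 7.89 CPM for 5 endothelial markers, 0.416 to 2.44 CPM for 6 T cell markers, 5.64 to 36.9 CPM for 4 Treg markers and 1.88 to 5.60 CPM for 6 macrophage and Langerhans cell markers. Cd3e and Cd3g were at 0 in 7 of 8 libraries, and Ptprc, the pan-leukocyte gene, had 0 to 11 counts. The Treg marker sum was mostly Ikzf2, at 129 to 1053 counts, against 0 to 22 for Foxp3, 11 to 25 for Il2ra and 0 to 13 for Ctla4. It is therefore not a measure of Treg cells. Interfollicular and upper follicle markers (6 genes) summed to 1594 to 4055 CPM, above the fibroblast, endothelial and immune lists. Krt5, Krt14 and Krt15 gave most of the follicle stem cell and basal keratinocyte sum, with Krt5 at 180809 to 318099 counts and Lgr5 at 6450 to 14375. That sum does not set follicle stem cells apart from other basal keratinocytes. Melanocyte markers (7 genes) summed to 129.6 to 391 CPM in experiment 2 and 58.2 to 88.8 CPM in experiment 1. Xist, the RNA that coats the inactive X of female cells, reached 72.0 CPM in Treg-depleted replicate 2 and 2713 CPM in Treg-sufficient replicate 2, against 0.968 to 2.26 CPM in the other libraries. These 2 libraries differed in Y-linked transcripts (4 genes), which summed to 316 CPM in Treg-depleted replicate 2, to 2.84 CPM in Treg-sufficient replicate 2 and to 314 to 417 CPM in the others. Both libraries with Xist reads belong to experiment 1, and results that turn on them are given with and without them. By these transcripts Treg-sufficient replicate 2 was female. Treg-sufficient replicate 1, at 1.69 CPM for Xist and 330 CPM for Y-linked transcripts, was male, so this pair was not made of repeats of the same animal.

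By level per kilobase of exon, the 10 genes fell into 3 tiers that did not overlap. Barx2 averaged 113 ± 36.7 CPM per kilobase over the 8 libraries, Lhx2 88.1 ± 21.3, Sox9 67.5 ± 10.9, Tbx1 58.4 ± 9.97, Nfib 56.7 ± 9.11 and Nfix 50.6 ± 3.27 CPM per kilobase (SD, n = 8). Nfatc1 followed at 20.8 ± 4.18 CPM per kilobase and ranked 7 in each library. Foxc1 at 11.4 ± 2.22, Tcf7l1 at 8.88 ± 2.59 and Tcf7l2 at 7.70 ± 1.15 CPM per kilobase made the lowest tier. The lowest value of the upper tier was 37.5 CPM per kilobase (Tbx1), the range of Nfatc1 was 16.3 to 26.6 and the highest value of the lower tier was 14.7 (Foxc1). Within a tier the ranges of all neighbours in this order overlapped, so the order of neighbours is not resolved. In each library Barx2 and Lhx2 ranked from 1 to 3 and Nfix from 5 to 6. Dividing by the longest transcript in place of all merged exons left Nfatc1 at rank 7 and the same genes above and below it. That length put Lhx2 at rank 1, Sox9 at rank 6, Tcf7l2 at rank 8 and Foxc1 at rank 10.

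**Figure D1:**
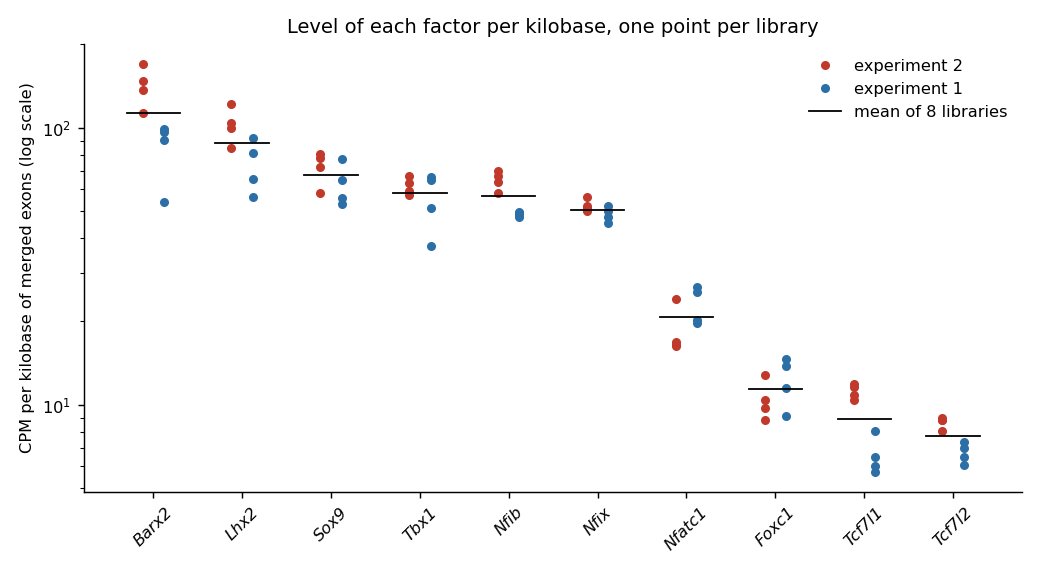
Level of each gene in CPM per kilobase of merged exons (log axis), one point per library for 8 libraries and a bar at the mean, ordered by mean. Barx2 leads at 113 CPM per kilobase, Tcf7l2 is lowest at 7.70, and Nfatc1 stands alone between the upper 6 genes and the lower 3.

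Within their protein families the genes held unequal shares. Of the summed level per kilobase of the SOXE family, Sox9 made up 99.0 ± 0.77%, with Sox8 and Sox10 making the rest. Nfib and Nfix made up 42.6 ± 3.12% and 38.4 ± 2.40% of the NFI family, which binds a palindromic site as dimers, ahead of Nfic at 15.9 ± 1.24% and Nfia at 3.14 ± 0.23%. Nfatc1 held 37.7 ± 4.50% of the NFAT family, beside 38.2 ± 4.17% for Nfat5, the member that answers salt stress and does not depend on calcineurin. In the TCF/LEF family Tcf7 was the most abundant per kilobase of merged exons at 48.6 ± 9.23%, above Tcf7l1 at 24.4 ± 6.87%, Tcf7l2 at 21.1 ± 3.19% and Lef1, a factor of the differentiating hair shaft, at 5.86 ± 1.31% (SD, n = 8 for every share). Per kilobase of the longest transcript, Tcf7l2 averaged 18.2 CPM and Tcf7l1 11.5 CPM, the reverse order. Shares were not computed with that length, so the order within this family depends on the length used.

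Spread over the 8 libraries also differed. The highest library stood 3.15-fold above the lowest for Barx2, 2.17-fold for Lhx2 and 2.07-fold for Tcf7l1, against 1.24-fold for Nfix. The median of the 10046 genes with a mean of at least 10 CPM was 1.57-fold. Sox9 (1.51-fold), Tcf7l2 (1.48-fold) and Nfib (1.46-fold) lay just under that median and Nfatc1 (1.63-fold), Foxc1 (1.67-fold) and Tbx1 (1.79-fold) above it.

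**Figure D2:**
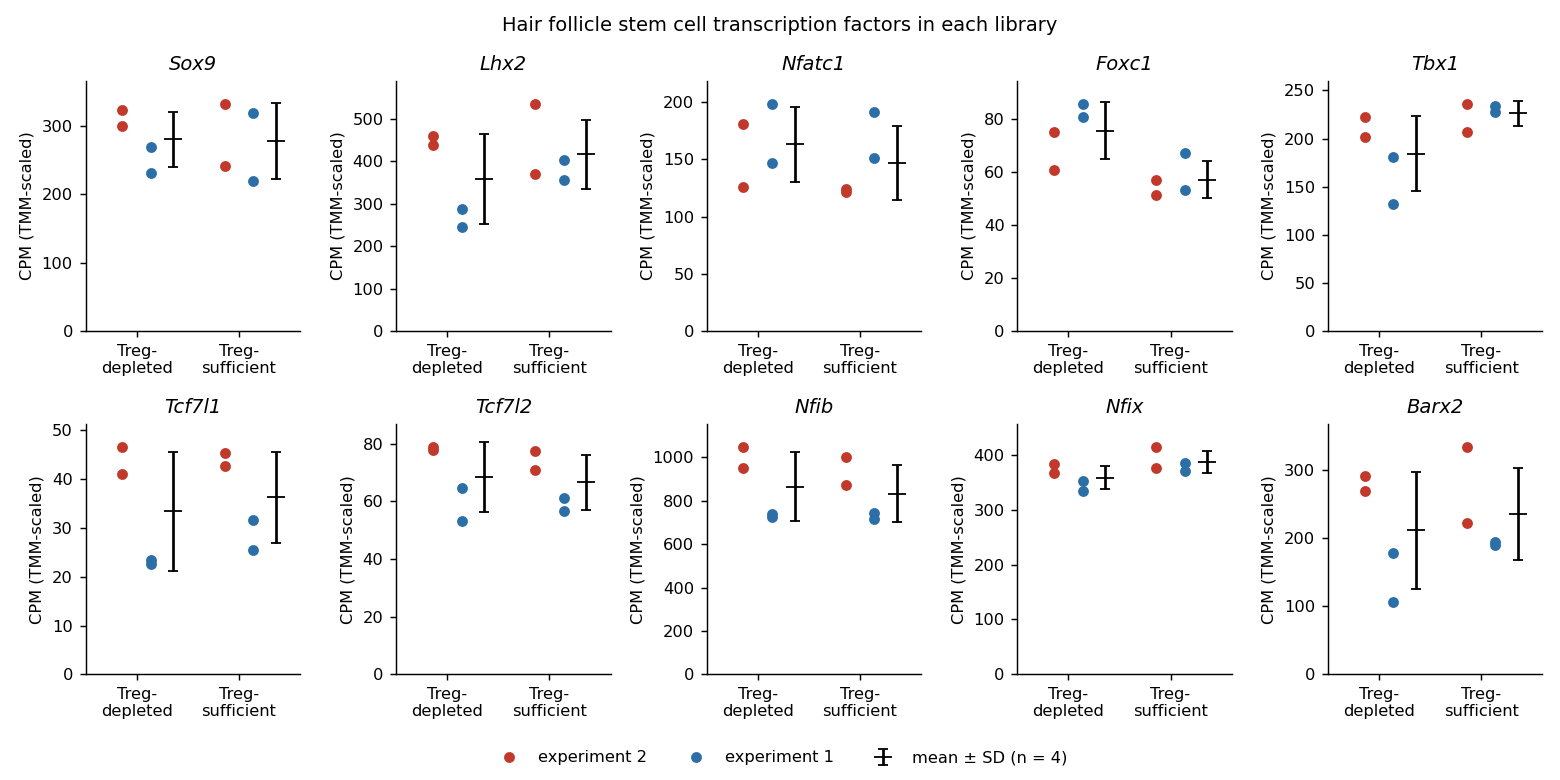
CPM of each gene in every library, Treg-depleted left of Treg-sufficient, points coloured by experiment and bars at the mean ± SD of each condition (n = 4). The condition groups overlap for each gene; for Tcf7l1 the 4 libraries of experiment 2 (41.0 to 46.6 CPM) lie above the 4 of experiment 1 (22.5 to 31.6 CPM).

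Set against Treg-sufficient cells, Treg-depleted cells showed no change in the 10 genes that passed the test. The test was edgeR's quasi-likelihood F-test with experiment number as a term and Benjamini-Hochberg adjustment over 16495 genes. It called 0 of the 10 genes and 0% of all genes, with 1175 genes at an unadjusted p under 0.05 (7.12%). DESeq2 called 84 genes, none of them among the 10. The condition groups overlapped for all 10, as they did for all but 2.32% of genes tested. Of the log2 fold changes 5 were positive and 5 negative, with a median of -0.053 beside 0.0019 over all genes. The bounds of the 95% intervals of the 10 fold changes ran from 0.635 (lower bound for Barx2) to 1.58 (upper bound for Foxc1). The unadjusted interval included no change for 9 of the 10 genes and lay above it for Foxc1. In bulk RNA, fewer cells that make a transcript and less of it per cell cannot be told apart.

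Foxc1, a forkhead factor that returns activated follicle stem cells to rest (GRCm38 chromosome 13, 31806633 to 31812476, plus strand), was the gene of the 10 nearest to the threshold. It had 80.8, 85.8, 75.2 and 60.9 CPM in Treg-depleted replicates 1 to 4, against 53.4, 67.2, 51.4 and 56.9 CPM in Treg-sufficient replicates 1 to 4. In 3 of 4 Treg-depleted libraries it lay above every Treg-sufficient library, and within each experiment both Treg-depleted libraries lay above both Treg-sufficient ones. The log2 fold change was 0.40 (SE 0.11, 95% interval 0.14 to 0.66, edgeR adjusted p = 0.686), so it does not count as changed. It was positive under all 20 alternative settings, from 0.32 to 0.47, with adjusted p from 0.147 to 1.

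Nfatc1, which acts beneath BMP and calcineurin signals to hold stem cells at rest (chromosome 18, 80606205 to 80713071, minus strand), had 147, 199, 181 and 126 CPM in Treg-depleted libraries, against 151, 192, 124 and 122 CPM in Treg-sufficient ones. The groups covered nearly the same range, and the log2 fold change was 0.16 (SE 0.16, edgeR adjusted p = 0.811). Tbx1, a T-box factor of stem cell self-renewal (chromosome 16, 18580979 to 18590671, minus strand), had 132, 181, 223 and 202 CPM in Treg-depleted libraries, against 228, 234, 236 and 207 CPM in Treg-sufficient ones. The lowest 3 of all 8 libraries were Treg-depleted ones, yet the difference of -0.31 on the log2 scale (SE 0.14, 95% interval -0.64 to 0.016) had an edgeR adjusted p of 0.696.

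Sox9, an HMG-box factor without which the bulge is not formed or kept (chromosome 11, 112782224 to 112787760, plus strand), had a mean of 280.1 ± 39.9 CPM in Treg-depleted cells and of 278 ± 55.8 CPM in Treg-sufficient cells (SD, n = 4 each). Its log2 fold change was 0.0032 (SE 0.15, edgeR adjusted p = 0.999), with a 95% interval of -0.35 to 0.35, and its sign held under 10 of 20 alternative settings. Lhx2, a LIM-homeodomain factor that keeps follicle stem cells undifferentiated (chromosome 2, 38339281 to 38369733, plus strand), had 288, 246, 439 and 459 CPM in Treg-depleted libraries, against 403, 356, 535 and 371 CPM in Treg-sufficient ones. Its lowest pair was Treg-depleted experiment 1, and the log2 fold change was -0.26 (SE 0.16, edgeR adjusted p = 0.718).

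Nfib, one of the NFI pair that keeps stem cell chromatin open (chromosome 4, 82290173 to 82705750, minus strand) averaged 865 ± 160 CPM in Treg-depleted cells and 832 ± 131 CPM in Treg-sufficient cells, a log2 difference of 0.049 (SE 0.10, edgeR adjusted p = 0.923). Nfix, the other of the pair (chromosome 8, 84699876 to 84800344, minus strand) averaged 358 ± 21.1 CPM in Treg-depleted cells and 386 ± 19.6 CPM in Treg-sufficient cells, a log2 difference of -0.11 (SE 0.090, edgeR adjusted p = 0.78). These NFI genes gave the narrowest intervals together with Tcf7l2. Barx2, the homeobox factor (chromosome 9, 31846044 to 31913462, minus strand) averaged 211 ± 85.5 CPM in Treg-depleted cells and 235 ± 67.1 CPM in Treg-sufficient cells, a log2 difference of -0.21 (SE 0.20, edgeR adjusted p = 0.804; SD, n = 4 for each mean here).

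**Figure D3:**
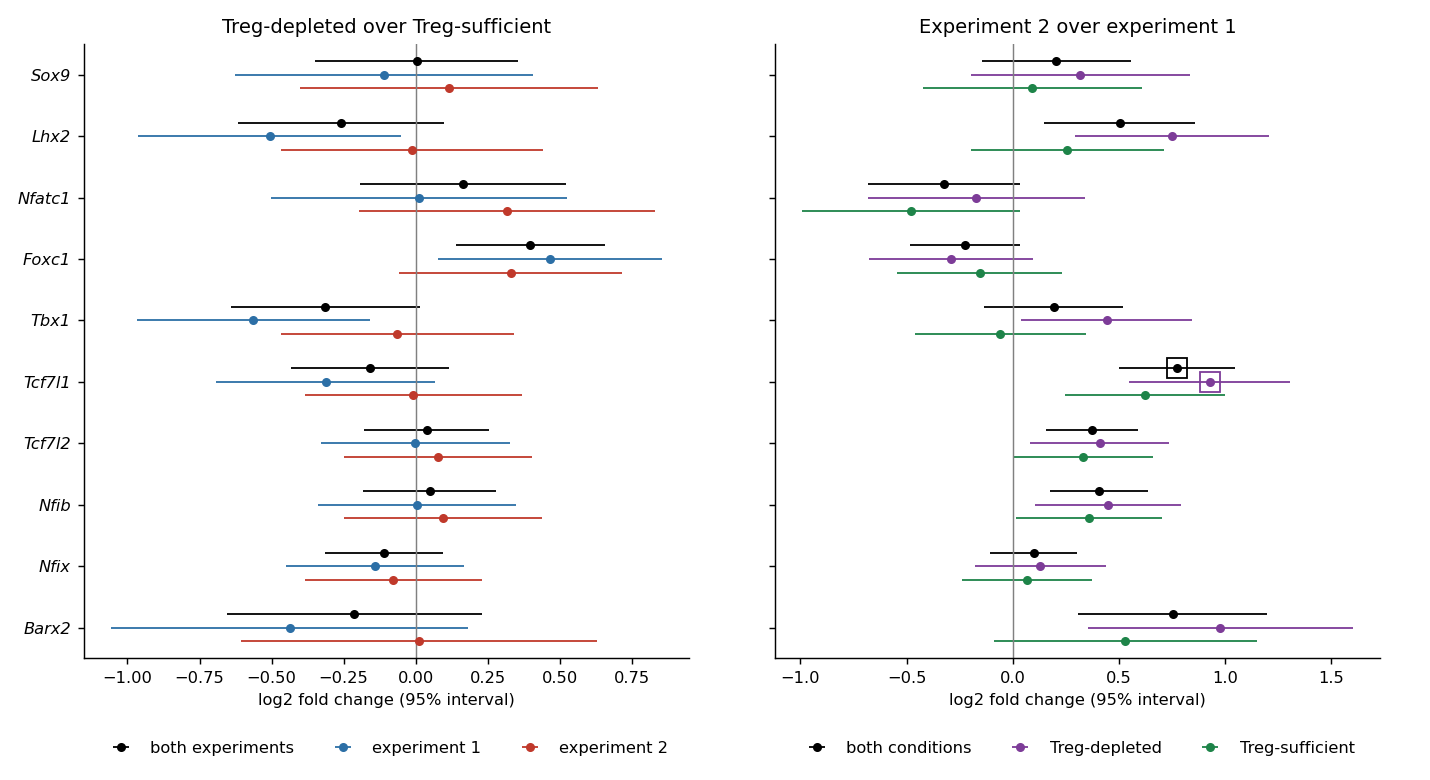
Log2 fold change with its 95% interval for each gene, Treg-depleted over Treg-sufficient in both experiments together and within each, and experiment 2 over experiment 1; squares mark an edgeR adjusted p under 0.05. Squares appear for Tcf7l1 alone, at 0.77 between experiments and at 0.93 within Treg-depleted cells.

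Within experiment 1 the condition groups stood further apart for several of the genes, without a call. Treg-depleted libraries lay above Treg-sufficient ones for Foxc1 and below them for Lhx2, Tbx1, Tcf7l1, Nfix and Barx2, that is 6 of 10 genes without overlap, where 37.6% of all genes tested had none with 2 libraries a group. edgeR called 0 of the 10 and 0.606% of all genes. Unadjusted p-values under 0.05 were given to Tbx1 (log2 fold change -0.56, SE 0.18, edgeR adjusted p = 0.252), Lhx2 (-0.51, SE 0.20, edgeR adjusted p = 0.39) and Foxc1 (0.47, SE 0.17, edgeR adjusted p = 0.337), against 11.1% of all genes. Tbx1 passed the threshold without the filter on low counts (-0.60, edgeR adjusted p = 0.0414) and without Treg-depleted replicate 2 (-0.84, edgeR adjusted p = 0.0414). Leaving out that replicate leaves 1 Treg-depleted library in experiment 1, whose spread is assumed from the other groups. Markers of the interfollicular epidermis and upper follicle moved with these genes: their sum was 1594 to 2227 CPM in Treg-depleted and 3739 to 4055 CPM in Treg-sufficient libraries of experiment 1, over 6 of 6 markers with counts in every library, and their part in the result was not tested. Fibroblast markers summed to 29.2 to 30.3 CPM in the Treg-depleted and 43.9 to 100.3 CPM in the Treg-sufficient libraries of that experiment, with Pdgfrb at 0 in 2 of the 8 libraries, and their part was not tested either.

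Within experiment 2 none of these differences was past even the unadjusted p of 0.05, which 1.75% of all genes were. edgeR called 0 of the 10 and 0 of all genes, and each of the 10 had an adjusted p of 1. Foxc1 was again higher in Treg-depleted cells by value (log2 fold change 0.33, SE 0.17), beside Tbx1 at -0.063 (SE 0.17) and Lhx2 at -0.013 (SE 0.20). Foxc1, Nfatc1 and Tcf7l2 were the 3 genes whose Treg-depleted libraries lay above the Treg-sufficient ones, and none lay wholly below, where 32.6% of all genes did not overlap. Whether the effect of Treg depletion differed between experiments was tested as an interaction, experiment 2 over experiment 1, and edgeR called 0 of the 10 and 0% of all genes, with 923 genes (5.6%) at an unadjusted p under 0.05 and none of the 10 among them. The interaction was 0.50 on the log2 scale for Tbx1 (SE 0.25, edgeR adjusted p = 0.941) and 0.49 for Lhx2 (SE 0.28, edgeR adjusted p = 0.951). DESeq2 called 182 genes for the interaction and 1 gene within experiment 2, none of them among the 10.

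Between experiments, Tcf7l1 rose in experiment 2, and Tcf7l2, Nfib, Barx2 and Lhx2 had higher values there that missed the threshold in edgeR. Tcf7l1 and Tcf7l2 are the pair of Wnt readers among the 10. The sequences around their transcription starts are shown because Tcf7l1 was called between experiments, with Tcf7l2, which was not called, as its relative. Nfib and Barx2 had no promoter listed. They are RefSeq promoters of assembly GRCm38.p6, from 250 bases before to 50 bases after the start, 5′ to 3′ on the strand of the gene. The first is chr6:72788996-72789295 on the minus strand and the second, at the 5′-most annotated start, is chr19:55741560-55741859 on the plus strand. Capitals mark matches, on either strand, to the GC box GGGCGG and to the SOX motif AACAAT.
Tcf7l1: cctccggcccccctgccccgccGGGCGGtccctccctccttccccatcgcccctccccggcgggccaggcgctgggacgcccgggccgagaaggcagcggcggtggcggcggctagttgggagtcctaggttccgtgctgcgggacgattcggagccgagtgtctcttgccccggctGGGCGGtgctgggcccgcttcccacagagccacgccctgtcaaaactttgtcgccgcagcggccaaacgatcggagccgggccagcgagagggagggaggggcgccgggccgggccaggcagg
Tcf7l2: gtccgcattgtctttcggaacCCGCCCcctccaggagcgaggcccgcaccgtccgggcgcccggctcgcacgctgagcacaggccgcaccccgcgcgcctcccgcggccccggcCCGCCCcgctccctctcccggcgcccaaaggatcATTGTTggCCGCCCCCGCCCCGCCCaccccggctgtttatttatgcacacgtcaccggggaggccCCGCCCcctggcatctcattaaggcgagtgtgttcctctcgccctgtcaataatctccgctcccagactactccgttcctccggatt
The Tcf7l1 promoter was 75.3% G and C and held 2 GC boxes, a motif found in 35.7% of the 32851 promoters of the table. The Tcf7l2 promoter shown was 70.0% G and C and held 6 GC boxes, overlapping matches included, and 1 SOX motif, which 10.7% of all promoters held. Neither window held the TCF/LEF motif CTTTGAT (3.73% of all promoters), the homeodomain motif TAATTA (5.29%), the TATA box TATAAA (13.6%) or the NFI palindrome, TTGGC and GCCAA 5 bases apart (0.0365%). These are matches of letters only. Promoters were listed for 6 of the 10 genes, 12 in all. The other promoter listed for Tcf7l2, chr19:55895071-55895370, was 42% G and C. It held 0 GC boxes, 0 SOX motifs and 1 TATA box.

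Tcf7l1, the TCF that represses Wnt targets in resting bulge cells (chromosome 6, 72626378 to 72789254, minus strand), had 41.0 and 46.6 CPM in Treg-depleted and 42.6 and 45.4 CPM in Treg-sufficient libraries of experiment 2. In experiment 1 it had 22.5 and 23.5 CPM in Treg-depleted and 25.5 and 31.6 CPM in Treg-sufficient libraries. The experiments did not overlap in either condition. Its log2 fold change, experiment 2 over experiment 1, was 0.77 (SE 0.12, 95% interval 0.50 to 1.05, edgeR adjusted p = 0.0439), with a 95% interval of 1.41- to 2.07-fold. That made 1 of 10 genes called, all of it higher, against 1.62% of all genes, 0.903% higher. The call was near the threshold. It was lost without any one of 7 of the 8 libraries, where the change was 0.71 to 0.87 with edgeR adjusted p from 0.0547 to 0.141, and kept without Treg-sufficient replicate 1 (adjusted p = 0.0387). Without both libraries with Xist reads it was 0.87 with an edgeR adjusted p of 0.204. DESeq2 gave an adjusted p of 3.8e-06. Over all genes, the 7 edgeR fits that lost the call when 1 library was left out called 0 to 39, against 268 with all libraries. An antisense gene, Gm15401, shares 4.56% of the exon bases of Tcf7l1, and reads there cannot be assigned if counting ignored strand.

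Tcf7l1 also made up more of its family in experiment 2, at 29.7 ± 3.09% of the summed TCF/LEF level per kilobase, than in experiment 1, at 19.0 ± 4.95% (SD, n = 4 each). The share of Tcf7, the most abundant relative per kilobase of merged exons and one named after its values were seen, was 41.7 ± 5.39% in experiment 2 and 55.6 ± 6.38% in experiment 1. No test was made of the shares, and those of Tcf7l1 overlapped between experiments, at 25.4 to 32.7% and 14.5 to 25.7%. Tcf7l2 (chromosome 19, 55741820 to 55933654, plus strand) had 77.7 and 78.8 CPM in Treg-depleted and 70.8 and 77.6 CPM in Treg-sufficient libraries of experiment 2. In experiment 1 it had 64.5 and 53.2 CPM in Treg-depleted and 61.1 and 56.7 CPM in Treg-sufficient libraries. The experiments did not overlap here either, with a log2 fold change of 0.37 (SE 0.095, edgeR adjusted p = 0.0734). Neither gene moved past the threshold with Treg depletion, at -0.16 (SE 0.12, edgeR adjusted p = 0.769) for Tcf7l1 and 0.038 (SE 0.095, edgeR adjusted p = 0.938) for Tcf7l2.

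Of the other genes, Nfib averaged 967 ± 75.8 CPM in experiment 2 and 729.9 ± 12.4 CPM in experiment 1 (log2 fold change 0.40, SE 0.10, edgeR adjusted p = 0.0709; SD, n = 4 each here and below). Barx2 averaged 279 ± 46.2 CPM in experiment 2 and 167 ± 41.4 CPM in experiment 1 (0.75, SE 0.20, edgeR adjusted p = 0.0747). With Tcf7l1 and Tcf7l2 these were the 4 of 10 genes whose experiments did not overlap, all of them higher in experiment 2, against 7.5% of all genes higher and 13.4% in either direction. Lhx2, at 451 ± 67.5 CPM in experiment 2 and 323 ± 69.7 CPM in experiment 1, overlapped between experiments (0.50, SE 0.16, edgeR adjusted p = 0.107). These 5 genes had an unadjusted p under 0.05, as 22% of all genes did. DESeq2 called these 5 genes (adjusted p from 3.8e-06 to 0.025) among 2167 genes called in all, 13.1%. The edgeR fit with no filter on low counts called 4, leaving out Tcf7l2, among 2443 genes called in all, 8.85%.

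Of the remaining genes, Nfatc1 and Foxc1 had lower values in experiment 2, without passing the test. Nfatc1 averaged 138 ± 28.3 CPM in experiment 2 and 172 ± 26.7 CPM in experiment 1 (log2 fold change -0.32, SE 0.16, edgeR adjusted p = 0.275). Foxc1 averaged 61.1 ± 10.2 CPM in experiment 2 and 71.8 ± 14.6 CPM in experiment 1 (-0.22, SE 0.11, edgeR adjusted p = 0.299). For both, the experiments overlapped. Tbx1 (0.19, SE 0.14, edgeR adjusted p = 0.498), Sox9 (0.21, SE 0.15, edgeR adjusted p = 0.499) and Nfix (0.099, SE 0.090, edgeR adjusted p = 0.589) had intervals that included 0. In all, 8 of the 10 values were above 0 and the median was 0.29, beside -0.020 over all genes. Of 7 melanocyte genes 3 passed the test between experiments, where 1.62% of all genes did: Dct (2.48), Pmel (2.52) and Tyrp1 (2.64). These are pigment genes with counts in every library. By value 6 of the 7 were higher and 1 lower (-0.52). The 3 calls held in 2, 3 and 0 of the 8 fits with 1 library left out. Without both libraries with Xist reads they were lost (2.46, 2.44 and 3.17). The sum of the 6 follicle stem cell and basal keratinocyte markers overlapped between experiments, at 14160 to 18460 CPM in experiment 2 and 17930 to 29650 CPM in experiment 1. By value 5 of these 6 were lower, Lgr5 was higher (0.090), and 0 were called. The part of these markers in the differences of the 10 genes was not tested.

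By condition, the difference between experiments was larger in value in Treg-depleted cells, where the median log2 fold change of the 10 genes was 0.43 beside 0.17 in Treg-sufficient cells. In Treg-depleted cells Tcf7l1 was 0.93 higher on the log2 scale in experiment 2 (SE 0.16, edgeR adjusted p = 0.0222), which made 1 of 10 genes called against 5.1% of all genes, 3.4% higher. The call was lost without Treg-depleted replicate 3 (1.02, adjusted p = 0.0809) or replicate 4 (0.83, adjusted p = 0.197), either of which leaves 1 library in that group, with the spread taken from the other groups. It was kept without both libraries with Xist reads (0.98, edgeR adjusted p = 0.0333). Barx2 had 291 and 269 CPM in experiment 2 and 106 and 178 CPM in experiment 1 (0.98, SE 0.27, edgeR adjusted p = 0.0823), and it was called without Treg-depleted replicate 2 (1.43, edgeR adjusted p = 0.0186), where 1 library with 106 CPM stands for experiment 1 and the other groups supply the spread. Lhx2 (0.75, SE 0.20, edgeR adjusted p = 0.0725) and Tbx1 (0.44, edgeR adjusted p = 0.206) had higher values in experiment 2 as well, and Tbx1 was called without that replicate, against 1 library in the same way (0.71, edgeR adjusted p = 0.0429). Of the 10 genes, 8 had both experiment 2 libraries above both experiment 1 libraries and 1 below, where 24.7% and 24.9% of all genes did. Marker sums differed between experiments in Treg-depleted cells too, in both directions. Interfollicular and upper follicle markers summed to 3400 to 3839 CPM in experiment 2 and 1594 to 2227 CPM in experiment 1. Fibroblast markers summed to 62.5 to 84.5 CPM in experiment 2 and 29.2 to 30.3 CPM in experiment 1. Melanocyte markers summed to 189 to 199 CPM in experiment 2 and 58.2 to 76.8 CPM in experiment 1. By value, 4 of 6, 5 of 7 tested and 6 of 7 genes of these lists were higher in experiment 2. The sum of the follicle stem cell and basal keratinocyte markers was lower, at 14160 to 16760 CPM in experiment 2 and 17930 to 29650 CPM in experiment 1. By value 5 of these 6 genes were lower, Lgr5 was higher (0.35), and 0 of the 6 were called. Of the marker genes, Dcn, a fibroblast proteoglycan gene, rose by 3.45 (SE 0.71, edgeR adjusted p = 0.033) and Dct by 2.62 (SE 0.53, edgeR adjusted p = 0.0315). The call was kept in 2 of 8 cases for Dcn (2.98 to 3.81) and in 5 of 8 for Dct (2.31 to 3.04) with 1 library left out, and limma-voom gave Dcn an adjusted p of 0.0981. The part of these markers in the result was not tested.

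In Treg-sufficient cells edgeR called 0 of the 10 and 0% of all genes, with 3 of the 10 and 6.56% of all genes at an unadjusted p under 0.05. These were Tcf7l1 (0.62, SE 0.16, edgeR adjusted p = 0.669), Nfib (0.36, edgeR adjusted p = 0.75) and Tcf7l2 (0.33, edgeR adjusted p = 0.751). Both experiment 2 libraries lay above both experiment 1 libraries for 4 of the 10 genes and below them for 1, where 19.6% of all genes lay above and 20.3% below. DESeq2 called 125 genes there. The interaction above is the test of whether conditions differ in this respect, and it gave no call.

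**Figure D4:**
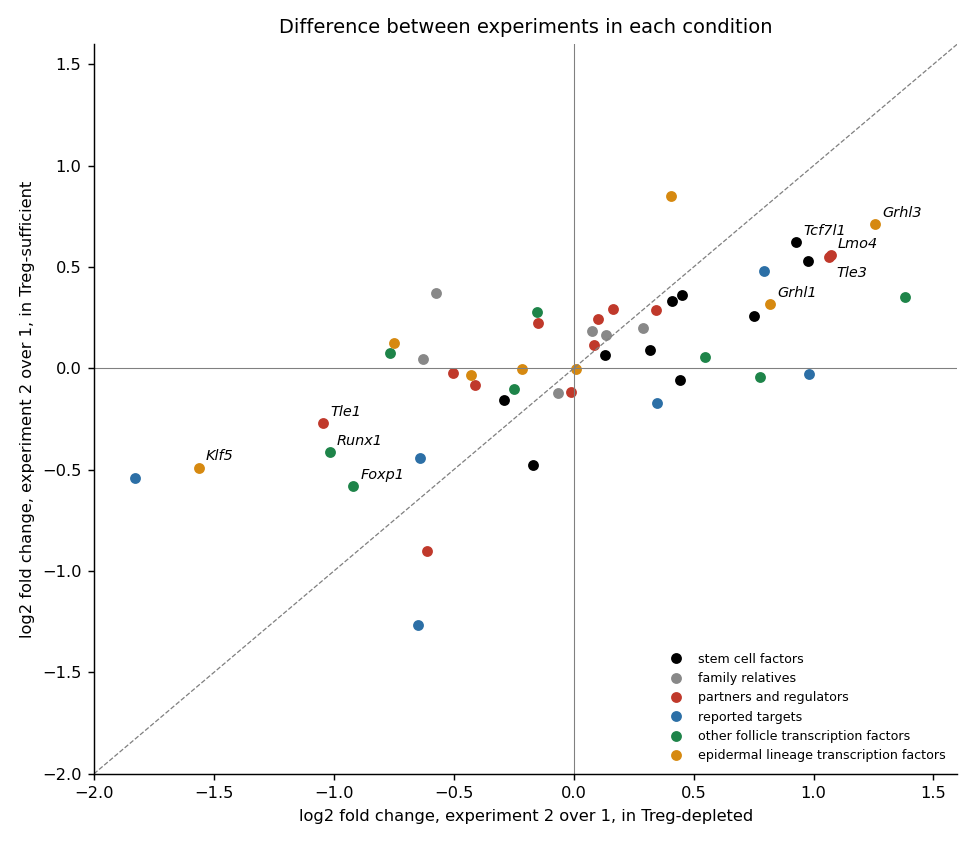
Log2 fold change of experiment 2 over experiment 1 in Treg-depleted cells against that in Treg-sufficient cells, for the 10 genes and for the listed relatives, partners, targets and other transcription factors with a mean of at least 10 CPM; named points passed the edgeR threshold between experiments or in Treg-depleted cells. Tcf7l1 lies at 0.93 and 0.62, and Foxp1, Runx1, Tle1 and Klf5 lie below 0 on the axis of Treg-depleted cells.

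Genes that work with the 10 were read from lists. Of 13 partners and regulators, all tested, 0 passed the test between conditions (1 lower at an unadjusted p under 0.05), with a median log2 fold change of 0.064. Between experiments, where 1.62% of all genes were called, 1 of 13 rose and none fell: Lmo4, a LIM-only protein that competes with LIM-homeodomain factors such as Lhx2 for the adaptor Ldb1, by 0.81 (SE 0.13, edgeR adjusted p = 0.0446). In Treg-depleted cells 2 of 13 rose and 1 fell in experiment 2, where 3.4% of all genes rose and 5.1% were called in all. Lmo4 had 166 and 191 CPM in experiment 2 and 88.5 and 81.5 CPM in experiment 1 (1.07, SE 0.15, edgeR adjusted p = 0.011). Tle3, a Groucho corepressor that binds TCF proteins, rose by 1.07 (SE 0.24, edgeR adjusted p = 0.0441), while its relative Tle1 fell by 1.04 (SE 0.16, edgeR adjusted p = 0.013), at 54.5 and 53.8 CPM in experiment 2 against 111 and 113 CPM in experiment 1. Ldb1 itself averaged 351 ± 30.8 CPM in Treg-depleted cells, against 353 ± 26.6 CPM in Treg-sufficient cells. Ctnnb1, which encodes β-catenin, averaged 1659 ± 149 CPM in Treg-depleted cells, against 1720.0 ± 207 CPM in Treg-sufficient cells, and neither passed a test.

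Of 15 family relatives 11 were tested and none passed between conditions, between experiments or within a condition. Nfic stood at -0.20 (SE 0.10, edgeR adjusted p = 0.696) and Nfat5 at 0.25 (SE 0.19, edgeR adjusted p = 0.769) between conditions. Of 7 reported target genes none passed a test. Lgr5, the gene of the tracing allele and a Wnt target, averaged 444 ± 92.8 CPM in Treg-depleted cells, against 421 ± 57.5 CPM in Treg-sufficient cells (log2 fold change 0.067, SE 0.18, edgeR adjusted p = 0.945). Cdk4, the cyclin D kinase that Nfatc1 represses, had 224, 310.3, 424 and 502 CPM in Treg-depleted libraries, against 438, 344, 616 and 475 CPM in Treg-sufficient ones. It was higher in experiment 2 by 0.64 (SE 0.16), with an edgeR adjusted p of 0.0709, and lower in Treg-depleted cells by value, at -0.39 (SE 0.16, edgeR adjusted p = 0.694).

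Transcription factors of the follicle outside the 10 and of the epidermis showed calls between experiments in both directions. Of 8 other follicle factors, 0 rose and 1 fell between experiments: Foxp1, a forkhead factor of quiescent stem cells, by 0.75 on the log2 scale (SE 0.13, edgeR adjusted p = 0.0446). In Treg-depleted cells 0 of 8 rose and 2 fell in experiment 2, against the same 5.1% of all genes called. Foxp1 fell by 0.92 (SE 0.17, edgeR adjusted p = 0.0256) and Runx1, which drives the entry of stem cells into growth, fell by 1.02 (SE 0.22, edgeR adjusted p = 0.0379). Runx1 had 139 and 161 CPM in experiment 2 and 306 and 302 CPM in experiment 1 in Treg-depleted libraries, against 142 and 163 CPM in experiment 2 and 157 and 248 CPM in experiment 1 in Treg-sufficient ones. The Treg-depleted libraries of experiment 1 stood above the other 6. Vdr, the vitamin D receptor, and Gli1, the readout of Hedgehog signals, passed no test, at 0.29 (SE 0.14, edgeR adjusted p = 0.696) and -0.21 (SE 0.31, edgeR adjusted p = 0.889) between conditions.

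Of 9 epidermal lineage factors, 1 rose between experiments, Grhl3, a grainyhead factor of barrier formation, by 0.98 (SE 0.17, edgeR adjusted p = 0.0446). In Treg-depleted cells 2 of 9 rose and 1 fell in experiment 2, again against 5.1% of all genes called. Grhl3 (1.25, SE 0.22, edgeR adjusted p = 0.0204) had 12.6 and 12.3 CPM in experiment 2 and 5.36 and 5.06 CPM in experiment 1, and Grhl1 rose by 0.82 (SE 0.17, edgeR adjusted p = 0.0373). Klf5, which is found together with Sox9 in wounded skin, fell by 1.56 (SE 0.31, edgeR adjusted p = 0.0284), at 13.02 and 10.01 CPM in experiment 2 against 30.3 and 37.7 CPM in experiment 1. Klf4, a factor of differentiating epidermis, had 359, 352, 275 and 148 CPM in Treg-depleted libraries, against 158, 117, 138 and 161 CPM in Treg-sufficient ones. Its first 3 Treg-depleted libraries lay above the other 5, and its difference between conditions was 0.94 (SE 0.24, edgeR adjusted p = 0.686). Trp63, the master factor of stratified epithelium, averaged 1215 ± 40.3 CPM in Treg-depleted cells, against 1092 ± 108 CPM in Treg-sufficient cells (0.15, SE 0.11, edgeR adjusted p = 0.762). None of the genes of these 5 lists passed the test between conditions, within an experiment, for the interaction or in Treg-sufficient cells.

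Each call of these listed genes was lost without at least 1 of the 8 libraries, while their directions held without any one of them. Between experiments, Lmo4, Foxp1 and Grhl3 each kept the call in 1 of 8 cases, without Treg-sufficient replicate 1. Over all genes, the fits that lost these calls called 0 to 39. The log2 fold change ranged over the 8 cases from 0.72 to 0.92 for Lmo4, from -0.83 to -0.64 for Foxp1 and from 0.91 to 1.09 for Grhl3, and the highest edgeR adjusted p was 0.141 for Lmo4, 0.138 for Foxp1 and 0.156 for Grhl3. Without both libraries with Xist reads it was 0.215 for Lmo4 and 0.204 for Foxp1 and Grhl3. In Treg-depleted cells all 8 listed genes lost the call without Treg-depleted replicate 4 and all but Lmo4 without Treg-depleted replicate 3, with edgeR adjusted p up to 0.26 (Tle3). Either omission leaves 1 Treg-depleted library in experiment 2, which is assumed to vary like the other groups. Leaving out both libraries with Xist reads leaves 1 Treg-depleted library in experiment 1. There Foxp1 (-0.89), Grhl3 (1.24) and Klf5 (-1.37) lost the call. The call was kept in 7 of 8 cases for Lmo4 (0.96 to 1.17), 6 for Tle1 (-1.05 to -1.01) and Grhl3 (1.24 to 1.31), 4 for Foxp1 (-1.15 to -0.72) and 3 for Klf5 (-1.76 to -1.37). It was kept in 2 of 8 cases for Runx1 (-1.13 to -0.92) and Tle3 (0.75 to 1.51) and in 1 for Grhl1 (0.62 to 1.08).

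For each of the 10 genes, the gene most like it in pattern was found by the root mean square difference of log2(CPM + 1), each gene centred on its own mean over the 8 libraries, among 10019 other genes with a symbol and a mean of at least 10 CPM. The closest were Ufsp2 to Nfix, at 0.032, and Smc5 to Tcf7l2, at 0.034. Phactr4 was nearest to Nfib (0.061), Rnf227 to Tbx1 (0.073), Gm5141 to Sox9 (0.075), Usp53 to Foxc1 (0.081), Pald1 to Lhx2 (0.082), Aff3 to Nfatc1 (0.089), Tbc1d1 to Tcf7l1 (0.092) and 1190002N15Rik to Barx2 (0.095). The median difference from all candidates was 0.22 for Nfix and 0.52 for Barx2. Over 8 libraries this is a description of likeness in level, across samples that share experiment and condition.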

How the data were processed

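The authors deposited raw read counts per gene, whole numbers without normalization, for 8 libraries. RNA of flash-frozen sorted cells was purified with RNeasy and sequenced from TruSeq Stranded mRNA libraries, per the labels' protocols. Per the submitters' processing notes, TopHat2 (version 2), SAMtools, HTSeq and DESeq2 were used with build GRCm38.p4, with no statement of each tool's role, of the annotation release or of the strand setting. The table also held 5 tallies outside genes, kept out of library sizes: 6.63 to 10.8% of reads in no gene, 2.72 to 3.01% ambiguous and 26.2 to 30.6% aligned to several places. No 2 libraries were identical.

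Symbols, positions and exon lengths came from GENCODE M21 (GRCm38), which named 45229 of the 46078 genes. Genes passing filterByExpr (minimum count 10) entered edgeR 4.0.16 under R 4.3.3 (TMM factors, quasi-likelihood F-test, Benjamini-Hochberg adjustment over 16495 genes, threshold 0.05). The pooled contrasts used terms for condition and experiment (5 residual degrees of freedom); contrasts within an experiment or condition and the interaction used 4 groups of 2 libraries (4 residual degrees of freedom). Steps were tested on simulated data. CPM use TMM-scaled library sizes; marker and Xist values use library totals. The 10 genes had 492 to 30222 counts per library. Their SD over the 8 libraries was 6.46% (Nfix) to 32.4% (Barx2) of the mean. Whether libraries of the same group differed by more than counting error was not tested. Alternatives included DESeq2 1.42.0 and limma 3.58.1 (voom).

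The genes followed, the lists of relatives, partners, targets, follicle and epidermal factors, and the marker lists were chosen with earlier results of these data known. From each list, genes past the threshold (up to 5 per comparison) and the 2 with the highest mean CPM are named.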

Additional observations from a re-analysis of the deposited data

How the results depend on the processing

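Over the 7 comparisons, the log2 fold changes of the 10 genes were recomputed under 1170 combinations of gene, comparison and setting. Direction and side of the threshold held in 1078, 17 newly passed, 10 no longer passed and 65 changed sign. The numbers of genes called depended more on the setting. Without the filter on low counts edgeR called 820 genes between conditions (339 higher, 481 lower), 1152 within experiment 1, 132 within experiment 2, 534 for the interaction, 2443 between experiments, 2279 between experiments in Treg-depleted cells and 547 in Treg-sufficient cells. DESeq2 called 84, 721, 1, 182, 2167, 1907 and 125 genes in the same order. Of the 10 genes, 1 (Tbx1) was called within experiment 1, 4 between experiments and 3 in Treg-depleted cells without the filter, and DESeq2 called 5 between experiments and 4 in Treg-depleted cells. Without both libraries with Xist reads, where each group of experiment 1 is 1 library assumed to vary like the others, 487 genes were called within experiment 1, 87 for the interaction and 2 between experiments, and of the 10 genes 0 between experiments and 2 in Treg-depleted cells (Tcf7l1 and Barx2). The 4-group model called 1058 genes between experiments. In Treg-sufficient cells 1 gene was called with DESeq2 size factors, with limma-voom and with a filter on groups of 2 libraries, an alternative chosen after seeing the data. The causes were not tested. Leaving out 1 library gave 16 to 443 genes within experiment 1, 0 to 9 for the interaction, 0 to 679 between experiments, 20 to 1553 in Treg-depleted cells and 0 to 6 in Treg-sufficient cells, 0 between conditions and within experiment 2, and of the 10 genes 0 to 1 within experiment 1, 0 to 1 between experiments, 0 to 3 in Treg-depleted cells and 0 elsewhere.

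Signs turned where values lay near 0. Sox9 between conditions was -0.0056 with DESeq2 size factors, -0.0071 with upper-quartile factors, -0.011 without the filter, -0.0038 with a mean of at least 50 counts, -0.0057 in DESeq2 and -0.014 with the filter on groups of 2. Within experiment 1, Nfatc1 was -0.027 with upper-quartile factors, -0.025 without the filter, -0.0093 with at least 50 counts, -0.085 without the Xist libraries and -0.014 with the filter on groups of 2, and Nfib was -0.0073 with DESeq2 size factors and in DESeq2, -0.031, -0.030, -0.015, -0.026 and -0.021 under the others in that order. Sox9 there was 0.026 without the Xist libraries, and Tcf7l2 was 0.0018 in limma-voom and 0.033 without the Xist libraries. Within experiment 2, Lhx2 was 0.0058 with upper-quartile factors and 0.0077 in limma-voom, and Tcf7l1 was 0.0089 with upper-quartile factors and 0.0027 without the filter. Between experiments without the Xist libraries, Nfatc1 in Treg-depleted cells was 0.085 and Foxc1 in Treg-sufficient cells 0.0017.

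Leaving out 1 library turned further signs. Between conditions the range was -0.10 to 0.13 for Sox9 and -0.021 to 0.083 for Tcf7l2. Within experiment 1 it was -0.35 to 0.15 for Sox9, -0.26 to 0.19 for Nfatc1, -0.043 to 0.0045 for Nfib and -0.17 to 0.095 for Tcf7l2. Within experiment 2 it was -0.25 to 0.33 for Barx2, -0.25 to 0.27 for Lhx2, -0.0032 to 0.20 for Nfib, -0.095 to 0.36 for Sox9, -0.15 to 0.034 for Tbx1 and -0.10 to 0.082 for Tcf7l1. For the interaction it was -0.30 to 0.020 for Foxc1, -0.0077 to 0.19 for Nfib, -0.0035 to 0.14 for Nfix, -0.033 to 0.47 for Sox9 and -0.020 to 0.24 for Tcf7l2. Between experiments it was -0.45 to 0.085 for Nfatc1 in Treg-depleted cells, and in Treg-sufficient cells -0.31 to 0.0016 for Foxc1, -0.031 to 0.50 for Lhx2, -0.0029 to 0.13 for Nfix, -0.15 to 0.37 for Sox9 and -0.15 to 0.034 for Tbx1.

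With the letters A to D of the titles as a replicate block, edgeR called 0 genes between conditions, and 0 of the 10, as it did without the experiment term. Same-lettered libraries deviated together from their condition means (correlation 0.192 to 0.435 over 10046 genes). These deviations include the difference between experiments, because libraries of the same letter come from the same experiment. Their deviations from condition and experiment means correlated at -0.267 in experiment 1 and -0.242 in experiment 2. With 2 libraries a group these deviations mirror each other, so A and B share a value, as do C and D, and crossing the letters reverses its sign. The correlations therefore cannot decide whether letters pair libraries within an experiment. Letters crossed within each experiment, a pairing chosen after seeing the data, also gave 0 genes.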
